A study of Mus musculus with 12 samples.

Results

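The genes described here are the heat shock proteins and their relatives among the molecular chaperones, measured in NIH-3T3 cells, an immortalised fibroblast line from mouse. Members were chosen by symbol alone, with no measured value: the Hspa, Hspb, Hsph1, Hsp90, Hspd1, Hspe1, Dnaja, Dnajb, Dnajc and Cct genes, Tcp1, and the transcription factors Hsf1 and Hsf2, without Hspa5 and Dnajb9. This gave 72 of the 17419 genes in the table. The name "cytosolic" does not cover all of them, since the symbols also take in chaperones of mitochondria (Hspd1, Hspe1, Hspa9, Dnaja3, Dnajc19) and of the endoplasmic reticulum (Hspa13, Dnajb11, Dnajc3, Dnajc10). All cells were wild-type NIH-3T3. They were given 4-thiouridine (4sU), a uridine analogue that enters RNA as it is made, at 800 µM for 15, 30, 60, 90 or 120 min, or were left without it (no4sU). The 6 groups each have 2 libraries, A and B, so that 10 of the 12 are labelled. No label says that A and B came from separate cultures, so the p-values measure the spread between these libraries, which may be technical. In SLAM-seq, iodoacetamide turns incorporated 4sU into a base read as C, and the new-to-total ratio (NTR) is the share of a gene's RNA estimated from these conversions to have been made during labelling. The series title gives the question as how the length of labelling biases quantification.

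Chaperones bind proteins that are unfolded or newly made and help them fold or stay soluble. Hsp70 proteins do this in cycles of ATP hydrolysis, with J-domain proteins (the Dnaj genes) delivering clients and Hsp110 proteins exchanging the nucleotide. Hsp90 acts late on signalling proteins, TRiC/CCT folds actin and tubulin inside a closed ring, and Hspd1 with Hspe1 forms the ring chaperonin of mitochondria. When unfolded proteins accumulate, Hsf1 binds heat shock elements, which are repeats of the block GAA and its complement TTC, and raises transcription of the inducible members, of which Hspa1a and Hspa1b are the classic examples.

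Total reads per library were between 9917026 and 13739380. The fibroblast markers were all present, 8 of 8 at 78.3 to 8327 CPM (reads of a gene relative to the library's total), while Cdh1, Ptprc, Pecam1, Kdr, Des and Gfap were under 1 CPM in every library. Of the other markers in the table, leukocyte Cd68 was at 4.20 to 6.76 CPM, neural Tubb3 at 5.99 to 9.40 and endothelial Cdh5 at 0.661 to 1.55, and their part in the results was not tested. The no4sU libraries differed more from each other than labelled replicates did: the SD of log2 A minus B over 9065 genes was 0.205, and its Spearman correlation with gene length was -0.58. Calls on the deposited counts that rest on these libraries are therefore also given without each. Of the 72 members, 66 passed the filter on low counts and were tested. The 6 that did not (Hspb1, Hspb2, Hspb7, Hspa1l, Dnajc6 and Cct6b) had almost no reads. Hspb1, the stress-inducible small heat shock protein Hsp25, had a mean of 0.0833 reads per library, and 48.8% of its 50-base windows are shared with the copy Hsp25-ps1, and how reads of such windows were assigned is not known here.

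Per kilobase of gene length and averaged over the 12 libraries, Hsp90ab1, the constitutive cytosolic Hsp90, had the highest level at 1876 CPM per kb. Hspa8, the constitutive Hsp70, followed at 854 CPM per kb, then Hspd1 at 537, Hsp90aa1 (the inducible Hsp90) at 464, Hspa9 (mitochondrial Hsp70) at 321, Cct2 at 316 and Cct5 at 313. The inducible pair was far lower, with Hspa1b at 10.999 and Hspa1a at 4.46 CPM per kb, and Hsf2 stood at 7.78 and Hsf1 at 19.7. These levels carry an uncertainty from copies, because 47.5% of the 50-base windows of Hsp90aa1, 39.7% of Hspd1, 38.6% of Hspa8 and 18.4% of Hspe1 also occur in transcripts of other annotated genes.

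The inducible Hsp70 pair is the textbook target of heat shock factors, so their promoters are shown first. Hspa1a and Hspa1b are neighbours on mouse chromosome 17, on the reverse strand (Hspa1a at chr17:34969190-34972156, Hspa1b at chr17:34956436-34959238, GENCODE M21 on GRCm38). The 250 bases before each start, from the RefSeq promoter table for GRCm38.p6, differ at 3 of 250 positions. Capitals mark the single match in each to a pair of facing heat shock blocks (GAANNTTC or TTCNNGAA, each its own reverse complement). The windows are chr17:34972157-34972406 and chr17:34959239-34959488, both printed on the reverse strand.
Hspa1a: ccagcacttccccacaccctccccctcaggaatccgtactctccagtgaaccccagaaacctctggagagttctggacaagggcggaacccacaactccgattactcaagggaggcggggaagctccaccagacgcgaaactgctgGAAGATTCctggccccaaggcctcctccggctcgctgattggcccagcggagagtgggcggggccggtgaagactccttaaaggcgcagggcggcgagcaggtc
Hspa1b: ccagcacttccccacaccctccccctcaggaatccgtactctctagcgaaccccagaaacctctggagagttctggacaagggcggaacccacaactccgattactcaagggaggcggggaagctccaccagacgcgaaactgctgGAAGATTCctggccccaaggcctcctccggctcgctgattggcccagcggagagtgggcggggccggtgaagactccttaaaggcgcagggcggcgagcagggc

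The transcripts share sequence too. In the same annotation, 62.3% of the 50-base windows of Hspa1b occur in Hspa1a, and 58.8% of those of Hspa1a occur in Hspa1b. Their estimated counts were not whole in 83.3% and 91.7% of the libraries respectively. No source used here says how reads shared between them were divided, so their sum is given as well.

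Hspa1b and Hspa1a rose with labelling time. In bulk libraries a change in the number of cells with a transcript and a change in RNA per cell cannot be told apart. Hspa1b stood at 26.1 and 29.4 CPM in no4sU A and B, at 28.6 and 27.3 after 15 min, 30.5 and 33.2 after 30 min, 34.6 and 27.2 after 60 min, 31.9 and 27.0 after 90 min, and 37.6 and 36.5 after 120 min. Both 120 min libraries lay above all the others. Hspa1a stood at 10.8 and 11.95 CPM without 4sU, 12.2 and 12.1 after 15 min, 11.6 and 13.4 after 30 min, 15.5 and 11.98 after 60 min, 15.6 and 12.9 after 90 min, and 14.0 and 16.7 after 120 min. Here the 120 min libraries overlapped those of 60 and 90 min, at each of which A was the higher. Summed over the pair, the lowest library was no4sU A at 36.8 CPM and the highest were the 120 min libraries at 51.7 and 53.1 CPM, with 60 min A at 50.1 CPM the next. The slope over the 10 labelled libraries, in edgeR's quasi-likelihood test with labelling time in hours, was 0.20 ± 0.0632 (SE) log2 per hour for Hspa1a (adjusted p = 0.0112) and 0.16 ± 0.0508 for Hspa1b (adjusted p = 0.0108). Without the 120 min libraries neither was called: the slope of Hspa1b was then 0.01 (edgeR adjusted p = 0.930) and that of Hspa1a 0.19 (adjusted p = 0.209). Leaving out 120 min B alone ended the call for both (adjusted p = 0.146 for Hspa1a and 0.101 for Hspa1b), and leaving out 120 min A ended it for Hspa1b (adjusted p = 0.106), as did scaling by library size alone (0.13, adjusted p = 0.0525).

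Much of their RNA turned over during labelling. The NTR of Hspa1a at 120 min was 70.0% in A and 64.2% in B, and that of Hspa1b 65.0% and 50.5%. The RNA of Hspa1b made before labelling, that is (1 - NTR) times CPM, went from 26.5 ± 0.633 CPM (SD, n = 2) at 15 min to 15.6 ± 3.42 at 120 min, while its new RNA went from 1.40 ± 1.53 to 21.4 ± 4.27 CPM. For Hspa1a the old RNA went from 11.2 ± 1.22 to 5.08 ± 1.23 CPM and the new RNA from 0.952 ± 1.30 to 10.3 ± 0.614 CPM. In both genes the gain of new RNA exceeded the fall of old RNA. This restates the rise of the total, since new and old RNA add up to it by definition. At 15 min the pair already had the highest mean NTR among the 56 members that averaged 100 or more reads, 7.79% for Hspa1a and 4.94% for Hspa1b, but the replicates disagreed. Hspa1a was at 15.3% in A, with an authors' 90% interval of 7.89% to 29.9%, and at 0.27% in B, with an interval of 0.32% to 7.21% that does not overlap the first.

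**Figure D1:**
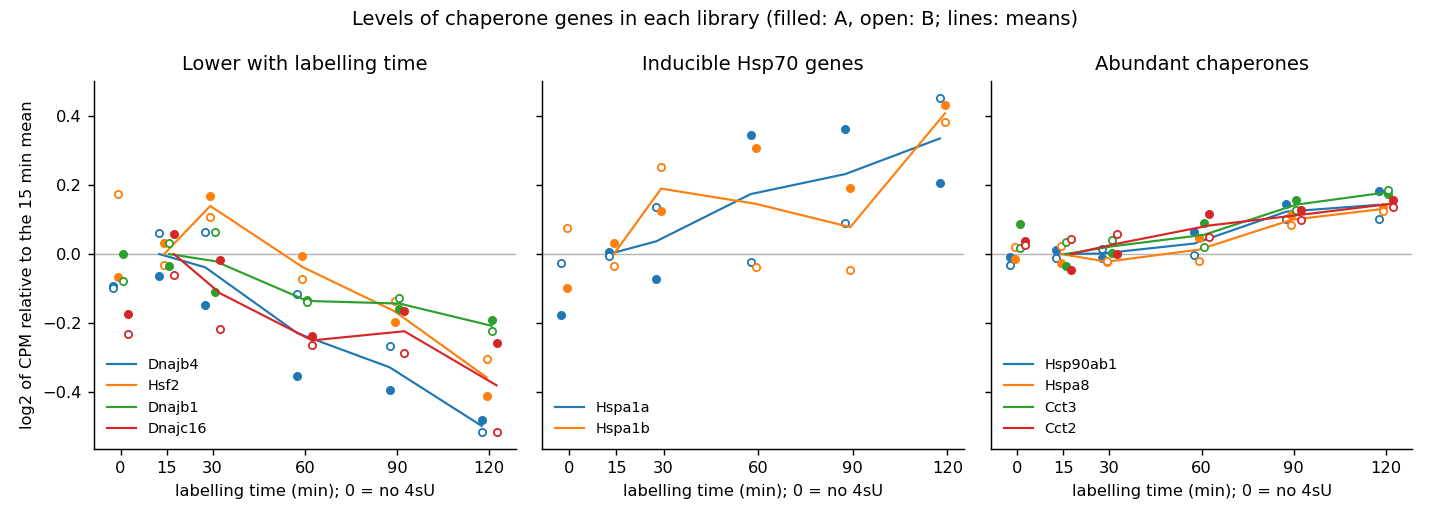
Level of 10 chaperone genes in each library, as log2 of CPM relative to the mean of the 2 libraries labelled for 15 min, against labelling time in minutes (0 stands for no 4sU; filled circles are replicate A, open circles B, and lines join the means of the labelled groups). Dnajb4, Hsf2, Dnajb1 and Dnajc16 lie lowest at 120 min, Hspa1a and Hspa1b lie above their 15 min level at 120 min with A and B apart at 60 and 90 min, and Hsp90ab1, Hspa8, Cct3 and Cct2 climb by under 0.2.

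Of the other Hsp70 family members, Hspa8 and Hspa12b also rose. Hspa8 was between 2580 and 2669 CPM in the no4sU, 15 and 30 min libraries, at 2708 and 2588 after 60 min, 2840 and 2783 after 90 min, and 2887 and 2861 after 120 min. Both 120 min libraries were above all the others, and the slope was 0.09 ± 0.0168 log2 per hour (edgeR adjusted p = 6.9e-05). Hspa12b, a divergent Hsp70 known from endothelial cells, had a slope of 0.27 ± 0.0746 (edgeR adjusted p = 0.0035), the steepest rise among the called members. Its level was low, 6.59 and 6.15 CPM after 15 min against 9.39 and 9.53 after 120 min, and the no4sU libraries at 8.88 and 8.59 CPM were also above those of 15 min. Without the 120 min libraries its slope was not called. The endothelial markers Pecam1 and Kdr were under 1 CPM and Cdh5 was at 0.661 to 1.55 CPM. Among members that did not pass the test were Hspa9, Hspa13, Hspa14, Hspa2 and Hspa12a, with slopes between -0.24 and 0.07.

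The nucleotide exchange factors of the Hsp110 group divided. Hspa4l rose at 0.14 ± 0.0345 log2 per hour (edgeR adjusted p = 0.0010), a call that DESeq2 did not make (adjusted p = 0.0846). It stood at 208 and 302 CPM without 4sU, 273 and 260 after 15 min, 263 and 301 after 30 min, 341 and 267 after 60 min, 346 and 278 after 90 min, and 315 and 323 after 120 min. The replicates overlapped between nearly all times, with A above B at 60 and 90 min, as for Hspa1a. Hsph1 rose by 0.05 ± 0.0203 per hour (edgeR adjusted p = 0.0411), a call lost without either 15 or 120 min library, 30 min A or 90 min A (adjusted p = 0.0580 to 0.188), with DESeq2 (0.0588) and with library size alone (0.538). Hspa4 had a slope of 0.03 that did not pass (adjusted p = 0.162).

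In the other direction, 6 members fell with labelling time. Dnajb4, a cytosolic J-domain partner of Hsp70, was at 40.4 and 40.2 CPM without 4sU, 41.2 and 44.9 after 15 min, 38.9 and 45.0 after 30 min, 33.7 and 39.8 after 60 min, 32.8 and 35.8 after 90 min, and 30.9 and 30.2 after 120 min. Both 120 min libraries lay below all the others, and the slope was -0.29 ± 0.0415 log2 per hour (edgeR adjusted p = 6.1e-07). Hsf2, a heat shock factor with roles in development as well as stress, was at 34.9 and 41.2 CPM without 4sU, 37.3 and 35.7 after 15 min, 41.0 and 39.3 after 30 min, 36.4 and 34.7 after 60 min, 31.8 and 33.2 after 90 min, and 27.4 and 29.6 after 120 min. It too was lowest in both 120 min libraries, with a slope of -0.24 ± 0.0421 (edgeR adjusted p = 1.9e-05). Hsf1, the main stress-responsive factor, went the other way with a slope of 0.09 ± 0.0331 (adjusted p = 0.0311), a call that was lost on leaving out 15 min A, 15 min B, 90 min A or 120 min A (adjusted p = 0.0692 to 0.164), with DESeq2 (0.0601) and with library size alone (0.217).

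Dnajb1, the J-domain protein Hsp40 that works with inducible Hsp70, was at 59.6 and 56.4 CPM without 4sU, 58.2 and 60.9 after 15 min, 55.2 and 62.2 after 30 min, 54.3 and 54.1 after 60 min, 53.4 and 54.5 after 90 min and 52.2 and 51.0 after 120 min. Its slope was -0.12 ± 0.0322 log2 per hour (edgeR adjusted p = 0.0029), and the 120 min libraries were again the lowest. Dnajc16, an endoplasmic reticulum J-domain protein, went from 16.2 and 14.9 CPM after 15 min to 13.0 and 10.9 after 120 min (slope -0.20 ± 0.0601, edgeR adjusted p = 0.0074), a call lost without 120 min B (adjusted p = 0.0889). Dnajb14 (slope -0.10) and Dnajc5, the cysteine string protein of secretory vesicles (slope -0.06), completed the 6 that fell. The call of Dnajb14 was lost without 15, 30, 90 or 120 min A or 120 min B (edgeR adjusted p = 0.0615 to 0.228), and that of Dnajc5 without 30 min A or 120 min A (adjusted p = 0.0648 and 0.188).

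Dnajb4 also holds a pair of facing heat shock blocks, in the 250 bases before the second of its starts in the RefSeq table (chr3:152193846-152194095, GRCm38.p6, reverse strand; no exon of the annotation overlaps this window). It is shown because the gene moved against the Hspa1 pair. The 250 bases before its first start held no such pair. Of the other members that fell, Dnajb1, Dnajb14, Dnajc16 and Hsf2 held none in their windows, and Dnajc5 had no window there. Of the members that rose, some held a pair, such as Cct2, Cct5 and Dnaja1, and some did not, such as Cct3, Cct8 and Tcp1. A link between motif and direction was not tested. Capitals mark the match.
Dnajb4: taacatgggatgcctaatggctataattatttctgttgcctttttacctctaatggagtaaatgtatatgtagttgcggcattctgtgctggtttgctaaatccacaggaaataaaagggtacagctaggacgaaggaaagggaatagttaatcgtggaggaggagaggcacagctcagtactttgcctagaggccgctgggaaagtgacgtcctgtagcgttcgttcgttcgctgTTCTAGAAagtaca

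Most genes of the abundant folding machines rose by small amounts. Of the 8 tested TRiC/CCT subunits, 7 rose (Tcp1, Cct2, Cct3, Cct5, Cct6a, Cct7 and Cct8), with slopes of 0.06 to 0.11 log2 per hour, and Cct4 had a slope of 0.03 (edgeR adjusted p = 0.218). Over all tested genes 18.3% were called higher, and among genes with an NTR under 25% at 120 min, as these subunits had, 54.9% were. The call of Cct7 was lost without 120 min A (adjusted p = 0.0582), and with library size alone in place of TMM only Cct2, Cct3, Cct5 and Cct8 of the 8 passed. Cct3, the subunit with the steepest slope (0.11 ± 0.0182, edgeR adjusted p = 1e-05), was at 556 and 530 CPM without 4sU, 511 and 536 after 15 min, 524 and 539 after 30 min, 557 and 530 after 60 min, 584 and 572 after 90 min, and 590 and 595 after 120 min. The 90 and 120 min libraries were above all earlier ones. Both cytosolic Hsp90 genes rose, Hsp90ab1 at 0.09 ± 0.0169 (edgeR adjusted p = 3.8e-05) and Hsp90aa1 at 0.06 ± 0.0168 (adjusted p = 0.0041), the latter lost without 120 min A (0.0538) and with library size alone (0.191). Hsp90ab1 was at 4475 to 4624 CPM in the no4sU, 15 and 30 min libraries, 4780 and 4564 after 60 min, 5055 and 4907 after 90 min, and 5195 and 4903 after 120 min, so that 90 and 120 min overlapped and were both above every earlier library.

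Both mitochondrial chaperonin genes rose, Hspd1 at 0.07 ± 0.0170 and Hspe1 at 0.09 ± 0.0220 log2 per hour (edgeR adjusted p = 0.0006 and 0.0008). Both had an NTR under 25% at 120 min, and of all such genes 54.9% were called higher, beside 18.3% of all tested genes. They lie head to head on chromosome 1 and their annotated spans overlap at the starts (Hspd1 at chr1:55077835-55088243 on the reverse strand, Hspe1 at chr1:55088132-55091307 on the forward strand, GENCODE M21). A promoter window of each, but not the other window of Hspd1, holds 4 blocks in a row, each turned against the next with 2 bases between them. The 30 bases of chr1:55088053-55088082 (GRCm38.p6) around them, inside the annotated span of Hspd1, are given on each gene's strand, with the blocks and the bases between them in capitals.
Hspd1: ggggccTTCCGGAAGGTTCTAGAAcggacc
Hspe1: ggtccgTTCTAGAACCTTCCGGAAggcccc

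Among the J-domain genes that rose were Dnaja1 (slope 0.06), a type I partner of Hspa8, and Dnajb6 (slope 0.07), an aggregation suppressor, with calls lost on leaving out 1 of 4 libraries for Dnaja1 (edgeR adjusted p = 0.0763 to 0.199) and 1 of 6 for Dnajb6 (0.0651 to 0.150). Dnajb11 (0.09), Dnajc3 (0.11) and Dnajc10 (0.11), all co-chaperones of the endoplasmic reticulum, rose as well. With library size alone Dnajc3 and Dnajc10 were still called, while Dnajb11, Dnaja1 and Dnajb6 were not. Of 25 tested Dnajc genes 21 did not pass in either direction, where 18.3% of all tested genes were called higher and 19.4% lower. The 3 tested Hspb genes (Hspb6, Hspb8 and Hspb11) had slopes of 0.01 to 0.12 that did not pass (edgeR adjusted p = 0.103 to 0.961). Hspb8, the abundant gene of these 3, stayed at 148 to 167 CPM in all 12 libraries. Cryab is also a small heat shock protein, but its symbol kept it out of the members. It rose at 0.18 ± 0.0248 log2 per hour (edgeR adjusted p = 3.7e-07) and is counted among the co-chaperones below. DESeq2 did not make the calls of Dnaja1, Dnajb6 and Dnajb14 either (adjusted p = 0.0534, 0.0686 and 0.0728).

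In all, 23 of the 66 tested members rose with labelling time and 6 fell, against 18.3% of 11564 genes called higher and 19.4% called lower. Of the members, 34.8% rose and 9.09% fell, and the median slope was 0.05, where that over all tested genes was 0.00. Scaling by library size alone, in place of TMM, gave 13 higher and 8 lower among the members, beside 10.1% and 26.2% of all genes. The split between higher and lower calls thus moved with the scaling.

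**Figure D2:**
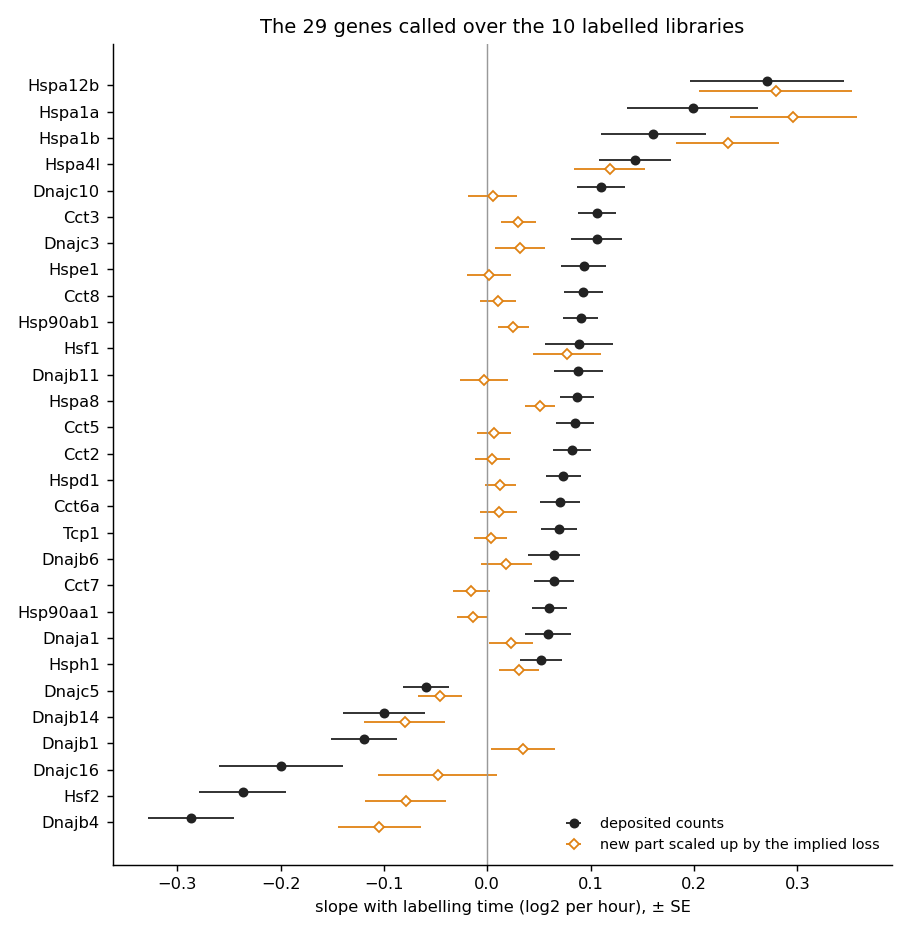
Slope with labelling time in log2 per hour, with its SE, for the 29 members called by edgeR over the 10 labelled libraries. Filled circles are the deposited counts and open diamonds the fit after scaling the new part of the counts by the implied loss, the share of new RNA taken as missing at each time; Hspa12b, Hspa1a, Hspa1b and Hspa4l keep slopes above 0.1 in both, while those of the Cct genes, Hspd1 and Hspe1 move close to 0.

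The end points gave fewer calls. After 120 against 15 min, edgeR called 8 members higher (Cct2, Cct3, Cct8, Dnajc10, Hsp90ab1, Hspa12b, Hspa1b and Hspa8) and 3 lower (Dnajb4, Dnajc16 and Hsf2), beside 7.93% higher and 11.3% lower over all genes. Hspa12b had a log2 difference of 0.57 ± 0.147 (adjusted p = 0.0107), Hspa1b of 0.41 ± 0.109 (0.0131) and Dnajb4 of -0.50 ± 0.0958 (0.0016). With library size alone the counts were 2 and 4, beside 3.68% and 16.1%. DESeq2 called 7 higher and 2 lower here, beside 12.7% of all genes in either direction. It did not call Dnajc16 (adjusted p = 0.124) and gave no adjusted p for Hspa12b, which is therefore neither called nor failed there. The spread in the edgeR fit includes the no4sU libraries. Fitted on the labelled libraries alone, the same contrast called 22 members higher and 4 lower, beside 15.2% and 16.8% of all genes. Fitted on the 15 and 120 min libraries alone it called 21 and 4, beside 14.9% and 17.8%. In the fit of all 12 libraries the calls rested on each library: 1 member was called without 15 min A, 4 without 15 min B, 3 without 120 min A and 2 without 120 min B, and Dnajb4 was among them each time. Over all genes the share called in either direction was then 5.66%, 8.95%, 8.86% and 6.05%, against 19.3% with all libraries.

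Against cells without 4sU, the 120 min libraries had 5 members higher (Hspa1a, Hspa1b, Hsp90ab1, Hspd1 and Dnajc3) and 2 lower (Dnajb4 and Hsf2), beside 5.43% and 8.78% of all genes. This contrast shares its 120 min libraries with the one before. The log2 difference was 0.43 ± 0.142 for Hspa1a (edgeR adjusted p = 0.0454; DESeq2 0.115), 0.41 ± 0.107 for Hspa1b (0.0159), -0.40 ± 0.0956 for Dnajb4 (0.0088) and -0.42 ± 0.0903 for Hsf2 (0.0047). With library size alone the counts were 1 and 4, beside 1.76% and 14.6%. Leaving out no4sU A gave 9 and 2 calls, beside 14.6% and 16% of all genes, and ended those of Hspa1a (0.37, edgeR adjusted p = 0.0645) and Hspd1 (0.09, 0.0722). The differences of Hspa1b, Dnajb4 and Hsf2 were then 0.33, -0.40 and -0.52 and still passed. Leaving out no4sU B gave 15 and 3 calls, beside 8.97% and 7.48%, with Hspa1a at 0.52, Hspa1b at 0.50, Dnajb4 at -0.41 and Hsf2 at -0.29, all called. Leaving out 120 min A gave 0 (10 at an unadjusted p under 0.05) beside 3.90% of all genes in either direction, and leaving out 120 min B gave 1 and 1 beside 4.06%. A fit of the no4sU and 120 min libraries alone called 0 members (7 at an unadjusted p under 0.05), beside 0.208% of all genes higher and 1.44% lower.

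The share of new RNA was lower among chaperones than over all genes. At 120 min the median NTR was 27.4% ± 0.583 (SD of the 2 libraries' medians) over the 56 members that averaged 100 or more reads, and 35.4% ± 0.523 over the 9065 genes with such counts. Members are abundant, and abundant genes had lower NTRs. Among genes that averaged 1000 or more reads the medians were 21.3% for 29 members and 26.7% for 2700 genes. By role, the TRiC/CCT subunits had a median of 17.9%, the mitochondrial chaperonin 18.0%, Hsp90 19.2% and the 3 Hspb genes with enough reads 24.8%. The Hsp70 family had 28.2%, Dnajc 28.4%, Hsp110 31.3%, Dnaja 36.2% and Dnajb 45.2%. The heat shock factors, only 2 genes, had a median of 61.2% that describes neither, with Hsf1 at 36.4% and Hsf2 at 86.0%. The SD was largest for the Hspb genes (8.81 percentage points). The TRiC/CCT and mitochondrial chaperonin medians differed by less than the SD of the latter (1.08 percentage points), and the Hsp70 and Dnajc medians by less than the SD of the former (0.552).

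The single genes spread far wider than the roles. The highest NTRs at 120 min were those of Dnajb4 (96.3% in A and 89.4% in B), Hsf2 (88.0% and 84.0%), Dnajb1 (80.0% and 86.0%), Dnajc16 (77.4% and 83.8%) and Dnajc27 (68.5% and 76.8%). Their replicates overlapped between neighbours in that order except for Dnajb4 against Hsf2 and Dnajc16 against Dnajc27. The lowest were Hspb11, an intraflagellar transport protein named as a small heat shock protein (8.69% and 4.95%), Dnajc19 of the mitochondrial import motor (7.91% and 8.46%), Dnajc10 (10.0% and 11.4%), Hspe1 (15.2% and 13.3%) and Dnajb11 (15.7% and 13.9%). The cytosolic TRiC/CCT subunits kept close together, from 16.2% for Cct8 to 22.4% for Cct6a.

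**Figure D3:**
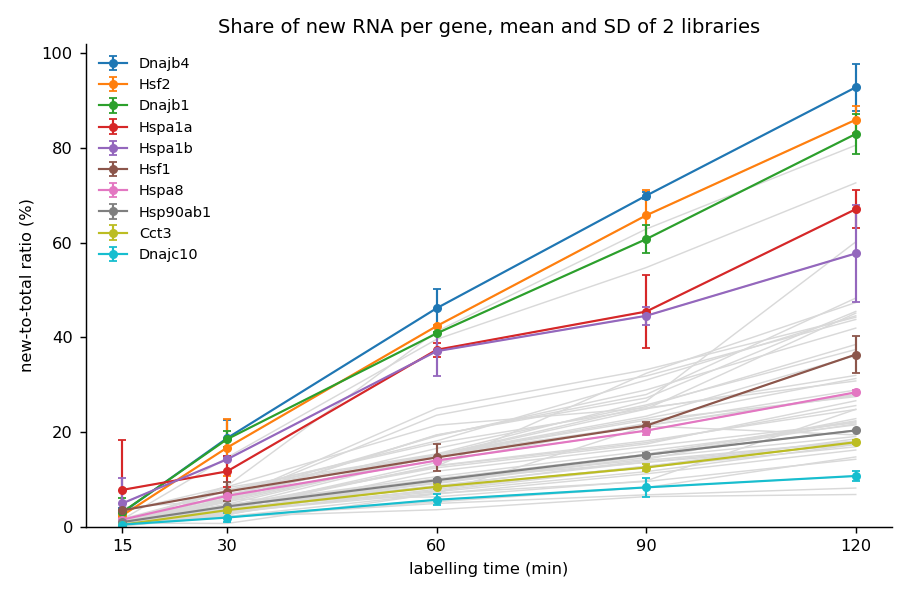
New-to-total ratio in percent against labelling time in minutes; grey lines are the means of the members that averaged 100 or more reads, and coloured lines are 10 named genes with the mean and SD of 2 libraries. Dnajb4, Hsf2 and Dnajb1 reach means of 92.8%, 86.0% and 83.0% at 120 min, Hspa1a and Hspa1b 67.1% and 57.8%, and Hspa8, Hsp90ab1, Cct3 and Dnajc10 stay at 28.4% or below.

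Read as an apparent half-life, which takes levels to be constant during labelling, the median member had 260 min ± 6.52 at 120 min, against 198 min ± 5.41 over all genes. The same members gave 294 min from the 60 min and 290 min from the 90 min libraries. Dnajb4 had 31.1 min ± 8.47 (SD, n = 2), Hsf2 42.3 min ± 4.40, Dnajb1 47.0 min ± 6.55 and Hspa1a 75.0 min ± 8.36. Those of Hspa8 were 249 min ± 4.34, of Hsp90ab1 365 min ± 0.428 and of Cct3 423 min ± 9.61. Over all genes the value fell with the length of labelling, with medians of 247, 224 and 198 min at 60, 90 and 120 min. It fell for the fast genes too: Dnajb4 had 67.5 min, Hsf2 75.4 min and Dnajb1 79.2 min from the 60 min libraries. For Hspa1a the 60 min libraries gave 88.9 min and for Hspa8 276 min.

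Old RNA of the fast members was nearly gone by 120 min. That of Dnajb4 went from 41.8 ± 2.12 CPM at 15 min to 2.17 ± 1.47, that of Hsf2 from 35.6 ± 1.22 to 4.01 ± 1.02, and that of Dnajb1 from 57.8 ± 3.61 to 8.79 ± 2.301. Their new RNA at 120 min was 28.3 ± 1.97, 24.5 ± 0.480 and 42.8 ± 1.49 CPM, which left all 3 below the total of 15 min. Cct3, at the slow end, kept 487 ± 5.25 of 521 ± 19.9 CPM of old RNA and gained 106 ± 1.51 CPM of new RNA by 120 min.

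**Figure D4:**
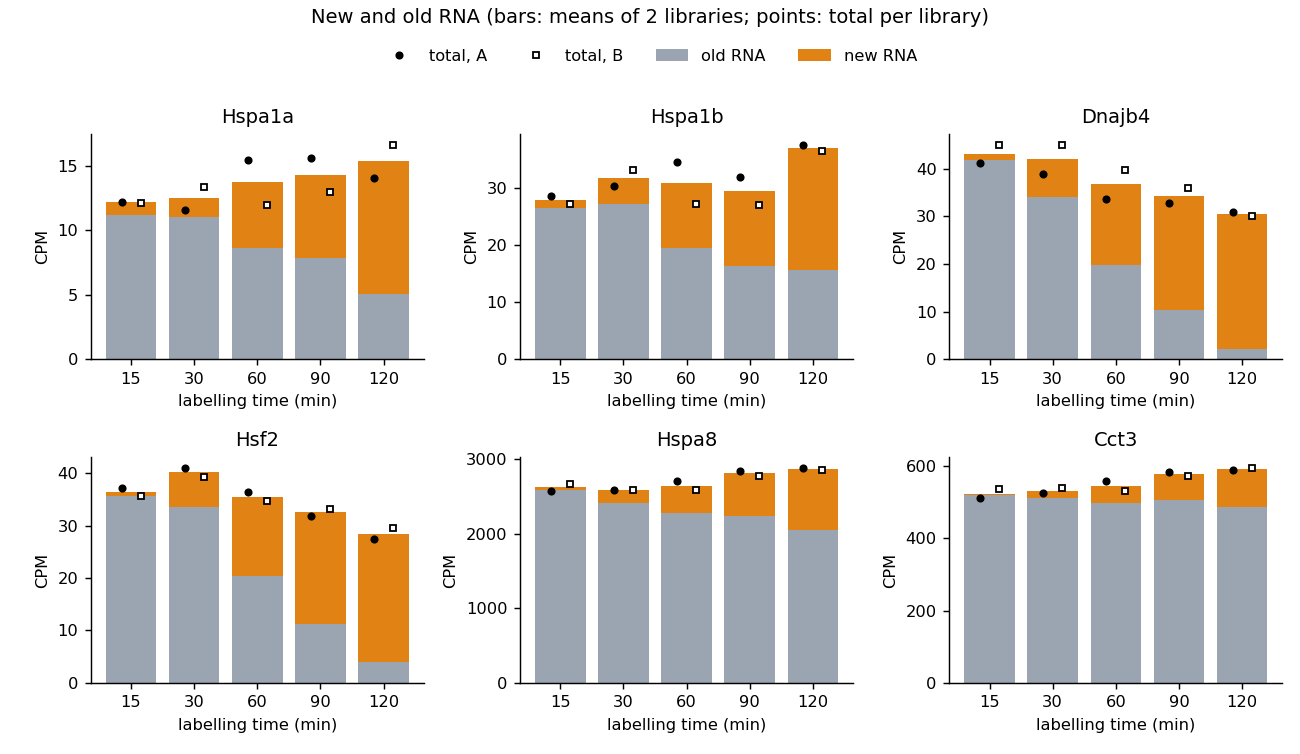
New RNA (NTR times CPM, orange) stacked on old RNA (grey) as means of 2 libraries, in CPM, against labelling time in minutes for 6 genes; black points are the total CPM of replicate A (filled) and B (open). Old RNA of Dnajb4 and Hsf2 shrinks to 2.17 and 4.01 CPM at 120 min, while that of Hspa8 and Cct3 makes up most of the bar at every time.

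The direction of change followed the NTR. Of the 26 members with an NTR under 25% at 120 min, 14 rose with labelling time and 0 fell by edgeR (0 at an unadjusted p under 0.05, 0 by DESeq2), where among all 3021 such genes 54.9% rose and 0.364% fell. With an NTR of 25% to 50%, 6 of 22 members rose and 2 fell, beside 10.7% and 13.1% of 3006 genes. At 50% and above, 4 of 8 members fell, beside 56.3% of 3038 genes, and 2 rose, beside 1.32%. Those 2 were Hspa1a and Hspa1b. As 62.3% of the windows of Hspa1b occur in Hspa1a, their counts may not be separate, and both calls rested on the 120 min libraries. The 4 that fell were Dnajb4, Hsf2, Dnajb1 and Dnajc16. Across genes, which share libraries and are not independent replicates, the Spearman rho of NTR and slope was -0.54 over 56 members and -0.78 over 9065 genes.

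**Figure D5:**
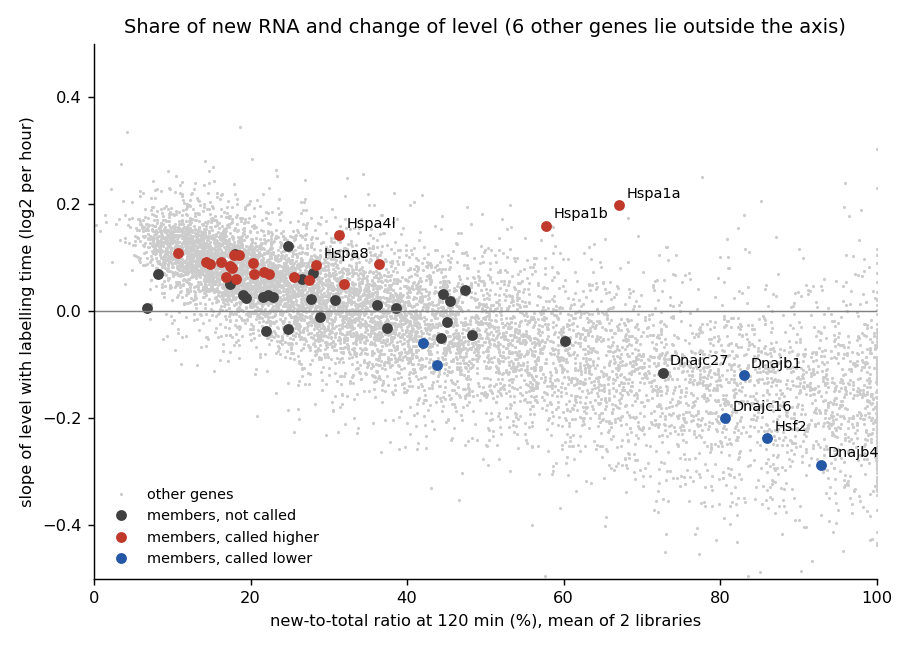
Slope of the level with labelling time in log2 per hour against the new-to-total ratio at 120 min in percent, for genes averaging 100 or more reads (grey: other genes, of which 6 lie outside the axis; red, blue and black: members called higher, called lower and not called). Members with low ratios lie mostly above 0 and Dnajb4, Hsf2, Dnajc16 and Dnajb1 lie below it at ratios over 80%, while Hspa1a and Hspa1b lie above 0 at 67.1% and 57.8%.

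How far that relation goes with the calls was measured by scaling up the new part of each count until log2 change and NTR had a rho of 0 across genes. The share of new RNA taken as missing in this way, the implied loss, was 34.1% and 35.6% in the 120 min libraries relative to 15 min. By construction it removes the relation over all genes. After it, the slope was called higher in 5 members (Hspa1a, Hspa1b, Hspa12b, Hspa4l and Hspa8). It was called lower in 2 (Dnajc13 and Dnajc2), beside 5.6% higher and 7.31% lower over all genes. The scaling adds most to genes with a high NTR. For Hspa1a and Hspa1b, at 67.1% and 57.8%, it could only steepen the rise, so their calls are no check of it. The slope of Hspa1a was then 0.30 ± 0.0616 (edgeR adjusted p = 0.0008) and that of Hspa1b 0.23 ± 0.0502 (adjusted p = 0.0012). That of Hspa4l was 0.12 ± 0.0344 (adjusted p = 0.0168), of Hspa12b 0.28 ± 0.0742 (0.0087) and of Hspa8 0.05 ± 0.0147 (0.0163).

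No TRiC/CCT subunit, Hsp90 or mitochondrial chaperonin gene was called after this scaling (edgeR adjusted p = 0.140 to 0.978), and neither was Dnajb4 (-0.10, edgeR adjusted p = 0.0791) nor Hsf2 (-0.08, adjusted p = 0.201). The slope of Dnajb1 turned to 0.03 (adjusted p = 0.535). In 120 against 15 min only Hspa12b (0.57 ± 0.149, edgeR adjusted p = 0.0498) and Hspa1b (0.53 ± 0.107, 0.0103) were called, beside 0.873% of all genes higher and 1.25% lower. Against no4sU the 2 called were Hspa1a (0.59 ± 0.138, edgeR adjusted p = 0.0335) and Hspa1b (0.51 ± 0.106, 0.0140), beside 0.761% and 0.856%. What the missing share stands for was not tested.

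In the RefSeq promoter table, which holds 250 bases before and 50 after each start, 57 of the 72 members were found. Of these, 17 (29.8%) had a pair of facing heat shock blocks in at least 1 window, on either strand, beside 17.0% of the 27025 genes in the table. A run of 3 alternating blocks with the same spacing, which contains the pair, was present in 4 members (7.02%) and in 0.662% of all genes. The 4 were Hspd1, Hspe1, Hsph1 and Dnajb6. Hspd1 and Hspe1 match in the same bases, read on opposite strands, so 1 stretch counts as 2 genes. The nearly identical windows of Hspa1a and Hspa1b likewise count as 2 among the 17. Slopes of the 4 were between 0.05 and 0.09, and none was called after scaling by the implied loss. A link between motif and slope was not tested. A match only says that these letters are in the window.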

How the data were processed

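NIH-3T3 libraries (6 groups of 2) were grouped and numbered by sample title. The authors deposited estimated counts per gene and library, unscaled, with 20.4% of values not whole (tolerance 1e-06); they were rounded for the tests. NTR values were deposited as a fraction per labelled library (posterior maximum, with 0.05 and 0.95 quantiles, per the file headers), and alpha and beta, each a deposited score, were not used. The submitters' processing notes name cutadapt, Bowtie2 2.3.0 and STAR 2.7.10b, without roles. No source used here gives the counting tool, strand use, genome build or annotation. Positions are those of the same Ensembl IDs in GENCODE M21 (GRCm38).

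edgeR 4.0.16 in R 4.3.3 kept 11564 genes (filterByExpr), with TMM factors of 0.970 to 1.02. A quasi-likelihood fit over 12 libraries gave 120 against 15 min and against no4sU, and another over the 10 labelled libraries gave the slope with hours. Benjamini-Hochberg adjustment ran over all tested genes, with calls at an adjusted p below 0.05. The script was tested on simulated counts. With 2 against 2 libraries an exact permutation test cannot go below 0.333, so none was used. Group means and SDs cover 2 libraries. CPM used TMM library sizes. New RNA was NTR times CPM and old RNA the rest. Apparent half-life was ln 2 times time divided by -ln(1 - NTR), for NTRs of 0.01 to 0.99. NTR medians used genes averaging 100 or more reads. The implied loss d was the share for which dividing the new part of each count by 1 - d brought rho to 0; values below 0 were set to 0. DESeq2 1.42.0 and other scalings, filters and left-out libraries were the alternatives.

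Members and lists were chosen with earlier results of these data known. Named were a set of central members, of those called in the slope or in 120 against 15 min the 15 with the largest change between these times, and the 5 highest and 5 lowest NTRs; others were named afterwards where a count of 5 or fewer or a contrast needed them.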

Additional observations from a re-analysis of the deposited data

How the results depend on the processing

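The slope gave 29 calls among the members, beside 37.7% of all tested genes called in either direction. Leaving out 1 library at a time gave 20 to 31, beside 29.5% to 37.8% of all genes. The new part scaled up by the implied loss gave 7, beside 12.9%, and leaving out both 120 min libraries gave 13, beside 14.3%. The other settings (library size alone, DESeq2, no filter, a mean count of at least 100, log2 of time) gave 21 to 29, beside 25.6% to 47.1%. For 120 against 15 min, with 11 calls, library size alone gave 6, scaling by the implied loss 2, the 2 groups alone 25, the labelled libraries alone (chosen after seeing the data) 26, and single left-out libraries 1 to 4. For 120 min against no4sU, with 7 calls, scaling by the implied loss gave 2, the 2 groups alone 0 by edgeR (7 at an unadjusted p under 0.05; DESeq2 on all groups 7), and left-out libraries 0 to 18. The share of all genes called moved too. In 120 against 15 min it was 19.3%, and 19.8% with library size alone. Scaling by the implied loss gave 2.13%, the 2 groups alone 32.7% and the labelled libraries alone 32.0%. Against no4sU it was 14.2%, with 1.62% after that scaling and 1.64% for the 2 groups alone. Scaling by the implied loss turned the slopes of Dnajb1 (0.0345), Dnajb11 (-0.00309), Hsp90aa1 (-0.0143) and Cct7 (-0.0153). The median NTR of 27.4% at 120 min was 21.3% for members averaging 1000 or more reads, 28.0% with at least 10, and 27.0% to 27.8% with a single library. The median half-life of 260 min was 347 min for members averaging 1000 or more reads, 294 min from the 60 min and 290 min from the 90 min libraries, and 255 to 264 min with a single library. Whether the letters A and B mark a shared culture or day is not known; correlations of A minus B between groups were -0.129 to 0.150, and the letters were not treated as pairs. With a replicate block the calls were 30, 11 and 7, beside 38.4%, 20.0% and 15.0% of all genes. Low counts limit Hspa1a, Hspa12b and Dnajc16, with means of 151, 91.8 and 155 reads.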

Other observations

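Of 43 tested co-chaperones, prefoldin subunits and other chaperones, 22 rose with labelling time and 3 fell (Bag4, Grpel2 and Hspbap1), with a median slope of 0.07 log2 per hour, beside 18.3% higher and 19.4% lower over all genes. With library size alone 14 rose and 5 fell, with a median of 0.04, beside 10.1% and 26.2%. Those that rose included the Hsp90 partners Stip1, Ahsa1, Cdc37 and Fkbp4, the Hsp70 partners St13, Stub1 and Bag1, and the prefoldin subunits Pfdn1, Pfdn2, Pfdn5 and Vbp1. Between 15 and 120 min 10 were higher and 2 lower (all genes 7.93% and 11.3%), and between no4sU and 120 min 5 were higher and 1 lower (5.43% and 8.78%). After scaling by the implied loss, Bag3, Cryab and Grpel1 had higher and Ptges3 had lower calls for the slope. That was 6.98% higher and 2.33% lower, beside 5.6% and 7.31% of all genes, so the share of higher calls was near that of all genes. In the 2 end-point contrasts 0 were called after this scaling, beside 2.13% of all genes against 15 min and 1.62% against no4sU. Bag3, an inducible Hsp70 exchange factor with an NTR of 70.7% at 120 min, had a slope of -0.03 before that scaling (edgeR adjusted p = 0.486). The list was chosen with earlier results of these data known.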
